A study of Mus musculus with 2 samples.

Results

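Translation initiation and elongation factors are the proteins that bring a messenger RNA, the initiator tRNA and the ribosome together and then move the ribosome along the coding sequence. Their genes were taken by symbol, as the protein coding genes named Eif1 to Eif6 or Eef, without pseudogenes and without Eif2s3y and Eif2ak2. The rule gave 66 genes of 43346 mouse gene identifiers in the tables, 21474 of which are protein coding. A further matching symbol, Eef1akmt4, was not analysed here.

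The data are total RNA sequencing of 2 libraries, each from a pool of 100 hematopoietic stem cells, uncommon self-renewing cells of the bone marrow from which all blood lineages derive. Both come from adult male C57BL/6J mice of 5 to 6 weeks with no treatment or genetic change named, and they form a single group of biological replicates numbered 1 and 2. Since both libraries carry 1 donor identifier in the labels, their spread may partly be technical. The gating used to isolate the cells was not stated in the labels. No second condition exists, so no test was made, and each difference below describes 2 libraries.

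In initiation, eIF2 delivers the initiator tRNA to the small ribosomal subunit, eIF1, eIF1A and eIF3 prepare that subunit for scanning, and the cap-binding eIF4E with the scaffold eIF4G and the helicase eIF4A loads it onto the messenger RNA. In elongation, eEF1A brings each aminoacyl-tRNA, the eEF1B complex recharges eEF1A with GTP, and eEF2 moves the ribosome by a codon. Blood stem cells are known for a low rate of protein synthesis, which the eIF4E-binding proteins, repressors of cap-dependent initiation, help to keep low.

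Levels are given in TPM, a transcript abundance divided by transcript length and scaled to a fixed total per library, so genes can be set side by side. Detection required a TPM of at least 1 and at least 10 expected counts (the estimated number of reads of a gene). Where a difference between libraries is also given in CPM, expected counts were scaled to a fixed total of nuclear coding counts without regard to length. That measure, and levels over protein coding transcripts alone, were added after the data were seen.

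Summed expected counts were 48313341 in replicate 1 and 28947093 in replicate 2, and nuclear protein coding genes held 30.03% and 26.55% of TPM. A single gene, Gm42418, held 29.8% and 40.9%. As TPM is scaled to a fixed total, this lowers the TPM of other genes by unequal amounts in the 2 libraries. Of 8 stem cell markers, 7 were detected in both libraries (summed TPM 495.9 and 352.8). Mecom (52.0 and 17.9 TPM) and Slamf1 (2.87 and 0.36) were over 2-fold higher in replicate 1, and none was over 2-fold higher in replicate 2. All 7 markers of mature neutrophils and monocytes were over 2-fold higher in replicate 2 (summed TPM 5.11 and 342.6, with S100a8 and Ltf at 0 in replicate 1). The 6 erythroid markers were detected in both libraries and none passed 2-fold. Their summed TPM of 1941 and 1733 stood above that of the stem cell markers in both, with Car1 at 1333 and 1071. For B cells, 4 of 6 markers were over 2-fold higher in replicate 2. In bulk RNA a change in the number of cells of a type and a change in RNA per cell cannot be told apart.

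Both libraries detected 61 of the 66 genes, which is 92.4%, where 45.5% of all protein coding genes were detected in both. Replicate 2 alone detected Eef1akmt1 and Eif4ebp3, and neither library detected Eef1a2, Eif4e1b or Eef1akmt3. The median TPM over the 63 genes detected in either library was 40.4 in replicate 1 and 38.5 in replicate 2, beside 11.4 and 10.3 over all protein coding genes detected in either. Together the genes held 3.50% and 3.68% of the TPM of nuclear protein coding genes, or 3.59% ± 0.13 (SD, n = 2). A mean of 100 TPM or more was reached by 11 of them. These were Eef1a1, Eif4g2, Eef2, Eif5a, Eif4a1, Eef1g, Eif4a2, Eif4ebp2, Eif4g1, Eif1 and Eif3a.

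**Figure D1:**
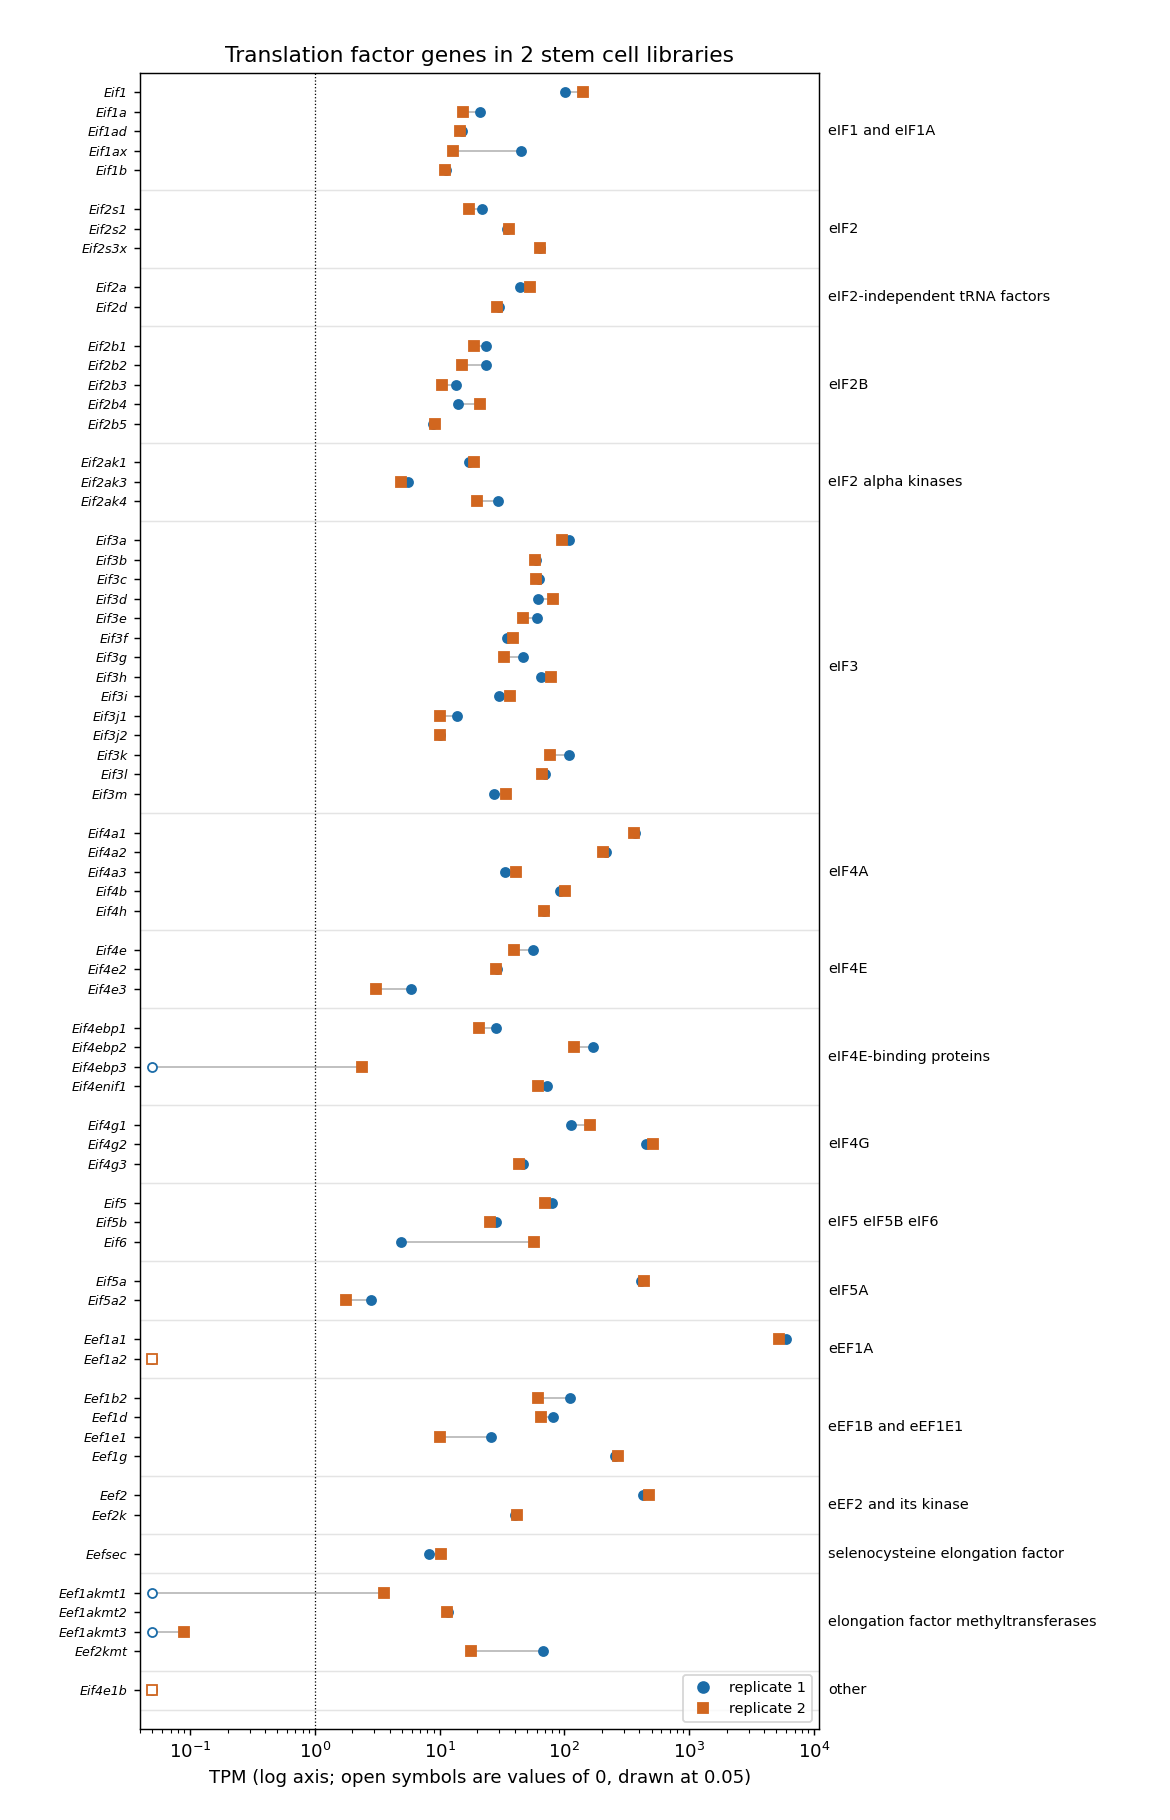
TPM (log axis) of each gene in replicate 1 (circles) and replicate 2 (squares), ordered by complex. Open symbols are values of 0 and the dotted line marks 1 TPM. Eef1a1 stands highest at 5932 and 5212 TPM, and Eef1a2 and Eif4e1b are at 0 in both libraries.

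The 2 libraries gave similar levels for most of these genes. Past 2-fold, on the log2(TPM + 1) scale, 3 of 63 were higher in replicate 1 (4.76%, against 11.2% of protein coding genes) and 3 of 63 higher in replicate 2 (4.76%, against 12.1%). Of the 63 genes, 54 lay within 1.5-fold (85.7%), where 57.0% of protein coding genes did and 67.8% of those with a mean of at least 10 TPM. The median absolute log2 difference was 0.26 for the factors, 0.49 for protein coding genes and 0.38 for those with a mean of at least 10 TPM. Among the genes with that mean, 3 of 56 were higher in replicate 1 and 1 of 56 in replicate 2, where 10.1% and 3.25% of protein coding genes were.

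Elongation factor 1A was represented by Eef1a1 only. Eef1a1 (chr9:78478449-78489151, minus strand, GRCm38) reached 5932 TPM in replicate 1 and 5212 in replicate 2, a mean of 5572 ± 509 (SD, n = 2). It was the most abundant nuclear protein coding gene in both libraries. It carried 56.4% and 53.3% of the TPM of all translation factors, and without it their share of nuclear coding TPM was 1.53% and 1.72%. Its paralog Eef1a2 (chr2:181147653-181157014, minus strand), the form known from muscle and neurons, had 0 counts in both libraries. With the upper limit of 3 counts that a count of 0 allows, Eef1a2 lay below 0.048 and 0.085 TPM. Over all its transcripts, Eef1a1 was thus at least 124443-fold higher than Eef1a2 in replicate 1 and at least 61609-fold higher in replicate 2. Its protein coding transcripts alone had 3413.5 and 2993.75 TPM, over which these folds would be smaller. The limit covers counting error only. Of 6 markers of muscle and neurons, none was detected in both libraries (summed TPM 1.02 and 0.33).

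The coding sequences of the 2 forms are alike enough to make their separation worth showing. Eef1a1 and Eef1a2 are identical at 80.1% of 1386 aligned coding bases, with a longest identical run of 23 bases and no shared stretch of 50. Their first 60 coding bases, read from GENCODE M21 transcripts with differing bases in capitals, differ at 11 positions. They lie at chr9:78480595-78480654 and chr2:181155347-181155406, both on the minus strand.
Eef1a1: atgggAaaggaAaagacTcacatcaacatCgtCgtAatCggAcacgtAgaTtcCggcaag
Eef1a2: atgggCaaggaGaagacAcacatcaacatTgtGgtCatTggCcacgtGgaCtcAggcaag

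Copies of Eef1a1 elsewhere in the genome are closer to it than Eef1a2 is. Of the 50-base stretches of its main transcript, 59.2% occur in a transcript of some other annotated gene, while none of those of Eef1a2 do. How the deposited counts divide such reads between Eef1a1 and its copies cannot be checked from the tables.

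The same contrast between a high and a low form was seen for eIF5A, the hypusine-bearing factor that helps ribosomes pass difficult peptide bonds. Eif5a stood at 409.8 TPM in replicate 1 and 435.6 in replicate 2, and Eif5a2 at 2.80 and 1.79. Eif5a was higher by 181-fold, a log2 ratio of Eif5a2 to Eif5a of -7.50 ± 0.50 (SD, n = 2). Their coding sequences are identical at 73.2% of 459 aligned bases, and the first 60 bases differ at 17 positions. They lie at chr11:69919256-69919315 (minus strand) and chr3:28782052-28782111 (plus strand), with differing bases in capitals.
Eif5a: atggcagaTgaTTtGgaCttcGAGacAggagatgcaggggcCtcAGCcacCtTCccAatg
Eif5a2: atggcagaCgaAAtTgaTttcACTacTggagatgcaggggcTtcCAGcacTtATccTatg

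The other elongation genes followed below Eef1a1. Eef2, the translocase, had 428.0 TPM in replicate 1 and 473.4 in replicate 2, and Eef1a1 was 12.4-fold higher than Eef2 on the mean log2 ratio (-3.63 ± 0.23, SD, n = 2). Over protein coding transcripts that ratio was -2.83 ± 0.24, so the gap was smaller. Eef2k, the kinase that inactivates eEF2, had 40.4 and 41.7 TPM, and 161.7 and 225.6 by CPM. A transcript of 203 bases carried 54.3% of its TPM in replicate 1 and 0% in replicate 2. These 3 genes kept the same order in both libraries.

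The subunits of eEF1B were not at one level. Eef1g, the gamma subunit, had 255.7 TPM in replicate 1 and 271.2 in replicate 2. Eef1d, the delta subunit with exchange activity, had 81.9 and 65.3 TPM, and Eef1b2, the beta subunit with the same activity, had 110.8 and 61.3. Over all transcripts Eef1g was highest in both libraries, and Eef1d and Eef1b2 changed places. Over protein coding transcripts Eef1d (69.8 and 52.6 TPM) stood above Eef1b2 (37.1 and 13.6) in both, and Eef1g (59.3 and 80.6) was highest in replicate 2 alone. Eef1g exceeded Eef1b2 by a log2 ratio of 1.21 in replicate 1 and 2.14 in replicate 2. Eef1e1 (also called p18, a part of the multi-tRNA synthetase complex; chr13:38644207-38659058, minus strand) had 25.9 TPM in replicate 1 and 10.02 in replicate 2. Its log2(TPM + 1) difference was 1.29, and that by CPM was 1.25. Eef1e1 has 1 annotated transcript, a protein coding one. The choice of transcript therefore could not set the 2 measures apart, and its coding share was fixed by the annotation.

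Eefsec, which brings selenocysteine tRNA to the ribosome, had 8.23 and 10.2 TPM. Of 4 genes for making and inserting selenocysteine, 3 were detected in both libraries. Sepsecs, which makes selenocysteine on its tRNA, was over 2-fold higher in replicate 1 by TPM (16.1 and 6.28), but by CPM it was higher in replicate 2 (34.5 and 52.9) and not past 2-fold. Secisbp2, which binds the insertion element, was over 2-fold higher in replicate 2 (6.75 and 17.3), as was Pstk, which phosphorylates that tRNA (0.40 and 4.37). Sephs2, which supplies selenophosphate, had 14.1 and 12.9 TPM.

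Of the 4 methyltransferases of elongation factors measured, 2 were detected in both libraries. Eef2kmt, which methylates eEF2, had 67.1 TPM in replicate 1 and 18.01 in replicate 2, and Eef1akmt2 had 11.7 and 11.4. Eef1akmt1 had no counts in replicate 1 and 46 in replicate 2 (3.59 TPM). The replicate 2 value was 27.4-fold above the limit of 3 counts in replicate 1. That limit covers counting error in replicate 1 only, so the fold is not a lower bound. Eef1akmt3 had 0 and 0.09 TPM. Eef2kmt was the only one of the 4 past 2-fold with counts in both libraries.

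Scanning factors eIF1 and eIF1A, which keep the start codon search accurate, were each encoded by more than 1 gene. Eif1 had 100.8 TPM in replicate 1 and 140.2 in replicate 2, and its paralog Eif1b had 11.2 and 10.99, so Eif1 was 10.6-fold higher on the mean log2 ratio. Eif1a had 21.02 and 15.5 TPM, and Eif1ax, its X-linked paralog, had 45.1 and 12.8. The order of Eif1a and Eif1ax thus differed between the libraries. Eif1ad, a protein with an eIF1A-like domain that acts in making the small ribosomal subunit, had 15.3 and 14.7 TPM.

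Subunits of eIF2 differed by gene more than by library. Eif2s3x, the GTP-binding gamma subunit, had 63.9 TPM in replicate 1 and 64.1 in replicate 2. Eif2s2, the beta subunit, had 34.9 and 35.7, and Eif2s1, the alpha subunit whose phosphorylation slows initiation, had 21.9 and 17.1. The order gamma, beta, alpha held in both libraries, and the log2 ratio of Eif2s3x to Eif2s1 was 1.72 ± 0.26 (SD, n = 2). The Y-linked copy of the gamma subunit, Eif2s3y, is outside the set and had 30.3 and 23.1 TPM. Eif2a and Eif2d, which can deliver tRNA without eIF2, had 43.9 and 52.7 TPM and 30.2 and 29.0 TPM. Over protein coding transcripts Eif2a had 24.8 and 17.8 TPM, and Eif2d had 4.03 and 16.9, past 2-fold.

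The 5 subunits of eIF2B, which recharges eIF2 with GTP, lay lower, at median levels of 14.1 and 15.3 TPM. Eif2b1 had 23.5 and 19.0 TPM, Eif2b2 23.6 and 15.3, and Eif2b3 13.6 and 10.5. Eif2b4 had 14.1 and 20.98 TPM, and Eif2b5, the catalytic subunit, had 8.82 and 9.23. Eif2b5 was the lowest of the 5 in both libraries over all transcripts. Over transcripts typed as protein coding, Eif2b4 (4.06 TPM) and Eif2b3 (6.60) were lower in replicate 2. The Eif2b4 value leaves out a transcript of 512 bases with 16.03 TPM in replicate 2. That transcript is absent from GENCODE M21, so whether it is coding is not known here.

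Kinases that phosphorylate eIF2 alpha are represented by 3 genes, and another, Eif2ak2, is outside the set (36.1 and 20.4 TPM). Eif2ak4 (GCN2, which senses uncharged tRNA) had 29.4 TPM in replicate 1 and 20.04 in replicate 2. Eif2ak1 (HRI, which senses heme) had 17.3 and 19.0, and Eif2ak3 (PERK, which senses unfolded proteins in the endoplasmic reticulum) had 5.61 and 4.92. Eif2ak3 was lowest in both libraries. A noncoding transcript of 517 bases carried 50.5% and 18.9% of the Eif2ak4 TPM. Over protein coding transcripts Eif2ak4 (14.57 and 16.25 TPM) stood below Eif2ak1 (17.31 and 17.68) in both libraries. Among genes of the response to eIF2 phosphorylation, 8 of 10 measured were detected in both libraries. Asns, an asparagine synthetase, had 64.5 and 100.8 TPM, and Atf4, the transcription factor of the response, had 45.8 and 34.6. Ppp1r15a, a phosphatase subunit that reverses the phosphorylation, had 52.6 and 27.5 TPM. Chac1 (0 and 2.93) and Trib3 (0 and 1.31) were over 2-fold higher in replicate 2 and had no counts in replicate 1.

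The scaffold complex eIF3, which binds the small subunit and the messenger RNA, was detected as a whole. All 14 genes were detected in both libraries and all lay within 1.5-fold by TPM. By CPM Eif3j1 was 2.21-fold higher in replicate 2. Leaving out the loosely bound subunit encoded by Eif3j1 and Eif3j2, the 12 other subunits had a median of 61.3 TPM in replicate 1 and 59.2 in replicate 2. The highest was 4.01-fold above the lowest in replicate 1 and 2.92-fold in replicate 2. Eif3a, the largest subunit, had 109.6 and 95.6 TPM, and Eif3k, a small subunit, had 109.3 and 77.1.

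Eif3b, Eif3c, Eif3d, Eif3e, Eif3h and Eif3l lay between 46.4 and 81.7 TPM in both libraries. Eif3f (34.9 and 38.5), Eif3i (29.7 and 36.8), Eif3m (27.3 and 34.1) and Eif3g (46.3 and 32.7) were lower. Eif3m was the lowest of the 12 in replicate 1 and Eif3g in replicate 2, where over protein coding transcripts Eif3f was lowest (30.1). Eif3j1 had 13.7 and 10.1 TPM and Eif3j2 10.07 and 10.14. The shorter coding sequence of that pair is 100% identical over 783 aligned bases, and 90.8% of the 50-base stretches of the Eif3j2 transcript occur in Eif3j1. Their separate levels are therefore uncertain.

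Over all transcripts, helicase genes were the highest of the cap-binding machinery apart from Eif4g2. Eif4a1 had 365.3 TPM in replicate 1 and 364.5 in replicate 2, and Eif4a2 had 215.6 and 205.1. Eif4a1 made up 62.9% and 64.0% of their sum, with a log2 ratio of Eif4a2 to Eif4a1 of -0.79 ± 0.05 (SD, n = 2). When only protein coding transcripts were counted the ratio was -1.91 ± 0.18, which puts Eif4a2 further below Eif4a1. Eif4a3, a helicase of the exon junction complex, had 33.5 and 41.2 TPM. The cofactors Eif4b (92.1 and 102.1) and Eif4h (68.8 and 69.0), which stimulate the helicase, lay between Eif4a3 and Eif4a2. Over protein coding transcripts both stood above Eif4a2 (29.2 and 36.7).

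Eif4a1 and Eif4a2 coding sequences are identical at 78.2% of 1218 aligned bases and share no stretch of 50. The 60-base window below, from coding base 73 of Eif4a1 and base 79 of Eif4a2, differs at 13 positions, marked in capitals. The windows lie at chr11:69670688-69670747 (minus strand) and chr16:23108719-23108778 (plus strand).
Eif4a1: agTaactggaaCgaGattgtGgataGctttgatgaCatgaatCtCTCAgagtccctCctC
Eif4a2: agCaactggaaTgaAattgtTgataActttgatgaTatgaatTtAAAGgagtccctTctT
Of the 50-base stretches of the Eif4a1 transcript, 65.3% occur in some other annotated gene, and of the Eif4a2 transcript 25.8%.

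Scaffold genes were led by Eif4g2 (DAP5), a form that lacks the eIF4E-binding part. It had 450.2 TPM in replicate 1 and 510.6 in replicate 2. Eif4g1, the main scaffold, had 112.7 and 159.7 TPM, and Eif4g3 had 46.5 and 43.5. The order held in both libraries, and Eif4g2 exceeded Eif4g1 by a log2 ratio of 1.84 ± 0.23 (SD, n = 2), or 0.88 ± 0.27 over protein coding transcripts. Short transcripts with a retained intron held much of the Eif4g2 TPM, and its coding transcripts carried 47.5% and 42.3% of it. By expected counts its main coding transcript held most, 32030 of 36353 in replicate 1 and 15029 of 19430 in replicate 2.

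The gene of the cap-binding protein, Eif4e (chr3:138526179-138559696, plus strand), had 56.4 TPM in replicate 1 and 39.9 in replicate 2. Eif4e2, a cap-binding repressor, had 28.6 and 28.4, and Eif4e3 had 5.88 and 3.12. Eif4e1b, known from oocytes, had no counts, with an upper limit of 0.11 and 0.20 TPM. The order Eif4e, Eif4e2, Eif4e3 held in both libraries.

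Of the eIF4E-binding proteins, Eif4ebp2 was the most abundant. Eif4ebp2 (chr10:61428491-61452661, minus strand) had 169.7 TPM in replicate 1 and 119.9 in replicate 2, and Eif4ebp1 had 28.3 and 20.8. Eif4ebp3 had 0 counts in replicate 1 and 26.4 in replicate 2 (2.37 TPM). The replicate 2 value was 15.8-fold above the limit of 3 counts in replicate 1. That limit covers counting error in replicate 1 only, so the fold is not a lower bound. Eif4ebp3 overlaps another protein coding gene on the same strand. Eif4enif1, which carries eIF4E into the nucleus and represses its messenger RNAs, had 73.0 and 61.9 TPM.

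Relative to Eif4e, Eif4ebp1 and Eif4ebp2 differed little between the libraries, although all 3 levels were higher in replicate 1. Eif4ebp2 exceeded Eif4e by a log2 ratio of 1.59 in both libraries, or 3.01-fold, and Eif4ebp1 stood at -0.99 and -0.94. The summed TPM of the 3 binding protein genes was 3.51 and 3.59 times that of Eif4e, and Eif4ebp2 made up 85.7% and 83.8% of the sum. The ratio depends on the transcript lengths of the annotation used for the deposited values. Its main Eif4ebp2 transcript has 1786 bases and its Eif4e transcript 2882, where GENCODE M21 gives 5784 and 4991. The effect of the longer models on the ratio was not tested.

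**Figure D2:**
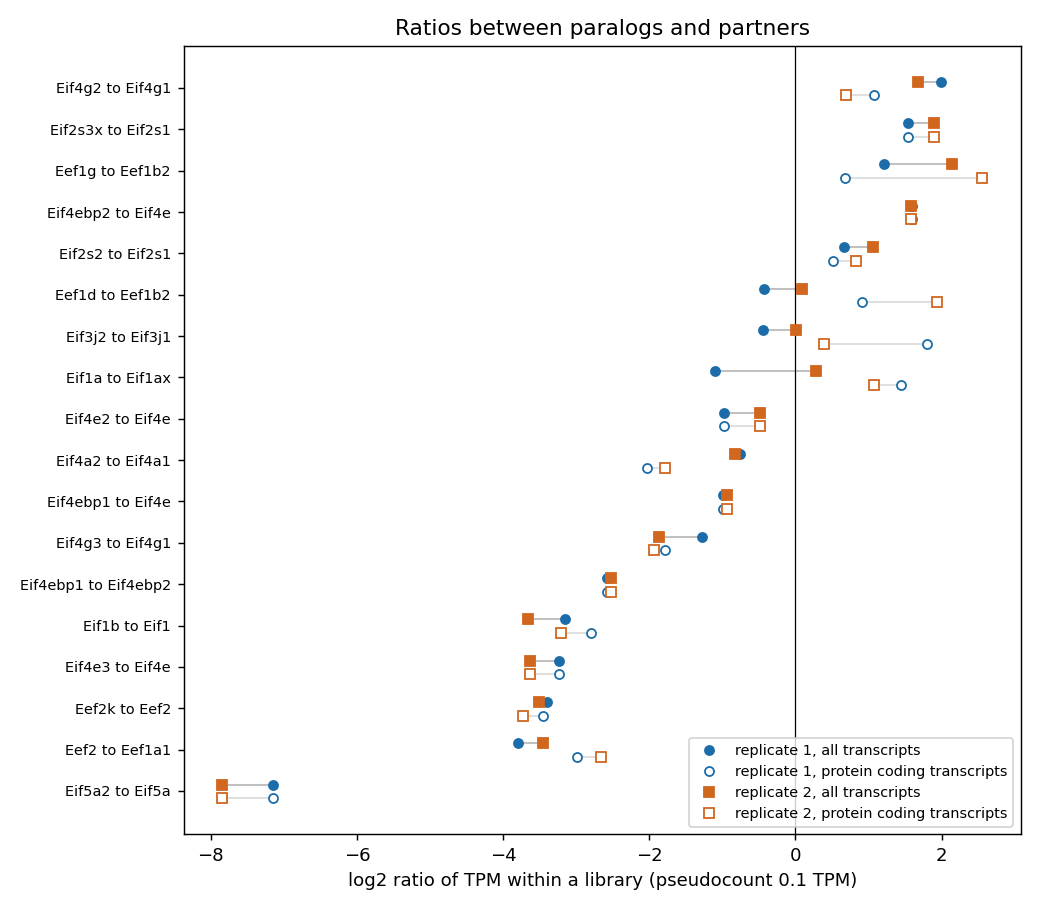
Log2 ratio of TPM between paralogs or partners within a library (pseudocount 0.1 TPM), for all transcripts (filled) and protein coding transcripts alone (open). Circles are replicate 1 and squares replicate 2. Eif4ebp2 to Eif4e is at 1.59 in both libraries, and Eif1a to Eif1ax lies on different sides of 0 over all transcripts. Ratios with Eef1a2 or Eif4ebp3, which have values of 0, are not drawn.

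Partners at the cap and the poly(A) tail were all present. All 11 listed genes were detected in both libraries and none passed 2-fold by TPM. Pabpc1, the main poly(A)-binding protein, had 723.1 TPM in replicate 1 and 697.5 in replicate 2, above every member of the set but Eef1a1. Pabpc4, a related poly(A)-binding protein, had 106.3 and 109.2, and Paip2, an inhibitor of poly(A)-binding protein, 110.0 and 58.8. Paip2 was past 2-fold by CPM (232.2 and 111.4).

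Among the late initiation factors, Eif6 differed most between the libraries. Eif5, which triggers GTP hydrolysis on eIF2, had 79.3 TPM in replicate 1 and 70.3 in replicate 2. Eif5b, which joins the ribosomal subunits, had 28.6 and 25.6. By CPM Eif5b was 1.49-fold higher in replicate 2 (187.5 and 280.0), and its protein coding transcripts had 7.14 and 11.9 TPM. Eif6 (chr2:155819832-155826925, minus strand), which keeps the large subunit from joining too early, had 4.91 TPM in replicate 1 and 57.3 in replicate 2. That is 11.7-fold higher in replicate 2, and 8.65-fold by CPM, from expected counts of 154 and 710. By TPM, Eif6 was the only member with counts in both libraries that was over 2-fold higher in replicate 2, and by CPM Eif3j1 was as well. The neutrophil and monocyte markers were higher in the same library, and their part in the value of Eif6 was not tested.

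Genes of scanning, recycling and termination were detected in both libraries for 10 of 11, the exception being Gspt2. Ddx3x, a helicase for structured leaders, had 167.6 and 123.1 TPM, Gspt1, a termination factor, 115.8 and 122.3, and Abce1, the recycling ATPase, 67.7 and 63.6. Denr (29.4 and 12.8) and Mcts1 (27.96 and 10.95), partners in recycling the small subunit, and Pelo (20.2 and 5.55), which rescues stalled ribosomes, were over 2-fold higher in replicate 1. Of the 9 genes that make hypusine on eIF5A or diphthamide on eEF2, 8 were detected in both libraries. Dph3 (6.25 and 18.1), Dohh (4.29 and 10.8) and Dph1 (0.12 and 13.3) were over 2-fold higher in replicate 2 by TPM. Dohh was not past 2-fold by CPM (9.32 and 13.4), and Dph5, which was not by TPM (4.84 and 9.62), was past it by CPM (10.8 and 27.1). Dph6 (12.4 and 21.02) and Dhps (10.1 and 12.1) did not pass 2-fold by either measure. For the partner lists here and above, 45.5% of all protein coding genes were detected in both libraries. Of those detected in either, 11.2% were over 2-fold higher in replicate 1 and 12.1% in replicate 2 by TPM. The lists are short and were not tested against these shares.

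TPM divides a count by the length of the transcripts to which reads were assigned, and for some genes that length differed between the libraries. The differences were therefore also taken on CPM. By CPM 6 of 63 passed 2-fold, 2 higher in replicate 1 and 4 higher in replicate 2, against 23.1% of protein coding genes in either direction. Both measures called 5 genes: Eif6, Eef2kmt, Eef1e1, Eef1akmt1 and Eif4ebp3. The measures pointed to different libraries for 14 of the 61 genes detected in both (23.0%, against 15.8% of protein coding genes).

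**Figure D3:**
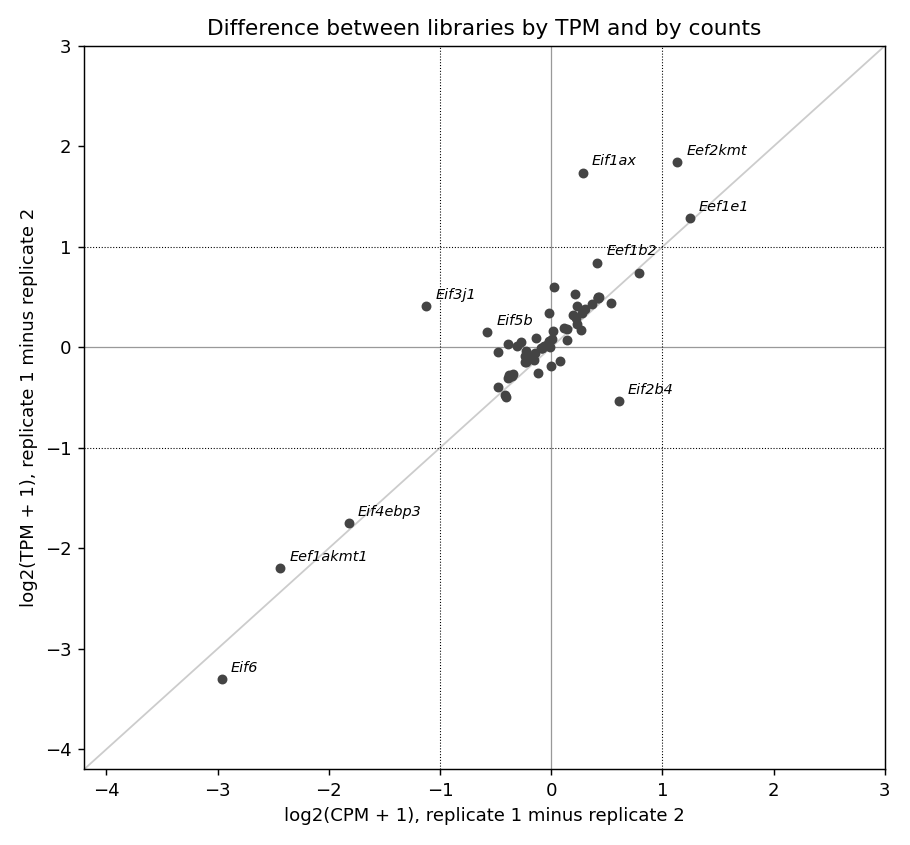
Difference between the libraries (replicate 1 minus replicate 2) on the log2(TPM + 1) scale against that of log2(CPM + 1), for the 63 genes detected in either library. Dotted lines mark 2-fold and the grey diagonal equal values. Eif6, Eef2kmt and Eef1e1 are past 2-fold on both axes, Eif1ax by TPM alone and Eif3j1 by counts alone.

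Eif1ax (chrX:159372178-159389928, plus strand) was past 2-fold by TPM alone. Its expected counts were 1598 in replicate 1 and 699 in replicate 2, which is 81.8 and 67.1 CPM, and the effective transcript length behind its TPM was 1104 and 3006 bases. A transcript of 416 bases with a retained intron carried 83.0% of its TPM in replicate 1 and 42.8% in replicate 2. The protein coding transcript had 7.69 and 7.33 TPM, so the coding form of Eif1ax differed little between the libraries. Over coding transcripts alone the log2 ratio of Eif1a to Eif1ax was 1.44 in replicate 1 and 1.07 in replicate 2, with Eif1a higher in both.

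Eif3j1 and Eif2b4 had opposite signs by the 2 measures. Eif3j1 had 13.7 TPM from 643 counts in replicate 1 and 10.1 TPM from 758 counts in replicate 2, and a transcript of 594 bases carried 79.5% and 23.8% of its TPM. Eif2b4 had 14.1 TPM from 794 counts and 20.98 TPM from 274 counts, and a transcript of 512 bases carried 0% and 76.4%. In each gene the library with the higher TPM was the one with more TPM on the short transcript.

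Eef2kmt and Eif6 were past 2-fold by both measures, and short transcripts carried part of their TPM too. In Eef2kmt (chr16:5244152-5255983, minus strand) a transcript of 519 bases with a retained intron carried 68.1% in replicate 1 and 44.6% in replicate 2. Its coding transcripts summed to 7.81 and 8.34 TPM, so the 2 libraries were close on the coding forms. In Eif6 the coding transcripts had 2.99 TPM in replicate 1 and 19.3 in replicate 2, still past 2-fold. A transcript of 402 bases had 0% and 35.4% of the Eif6 TPM, and one of 548 bases typed as a target of nonsense-mediated decay 39.0% and 29.9%.

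Across the set, protein coding transcripts carried over 99% of TPM in both libraries for 29 of 61 genes. For 22 of the 29 this was fixed by the annotation, which gives them a single transcript, a protein coding one. Over the 61 genes the median share of protein coding transcripts was 100% in replicate 1 and 94.8% in replicate 2. Over all protein coding genes detected in both libraries it was 100% and 88.9%. The count over 99% and the counts of top transcripts below were not taken over all genes and describe this set alone. Protein coding transcripts carried less than 50% in both for 8 of 61 (13.1%, against 12.7% of protein coding genes). These 8 were Eif4a1, Eif4a2, Eif4g2, Eif5b, Eef1b2, Eef1g, Eef1akmt2 and Eef2kmt. For Eef1a1 the share was 57.5% and 57.4%, and a noncoding transcript of 505 bases held 30.1% and 23.6% of its TPM. The transcript with most TPM was the same in both libraries for 42 of 61 genes. Of these, 22 have a single annotated transcript, so among the 39 genes with a choice 20 had the same top transcript. It was a protein coding one in both libraries for 47 of the 61. The mean fragment lengths read from the tables were 123 and 131 bases, so short transcripts offer few fragment positions to estimate from.

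**Figure D4:**
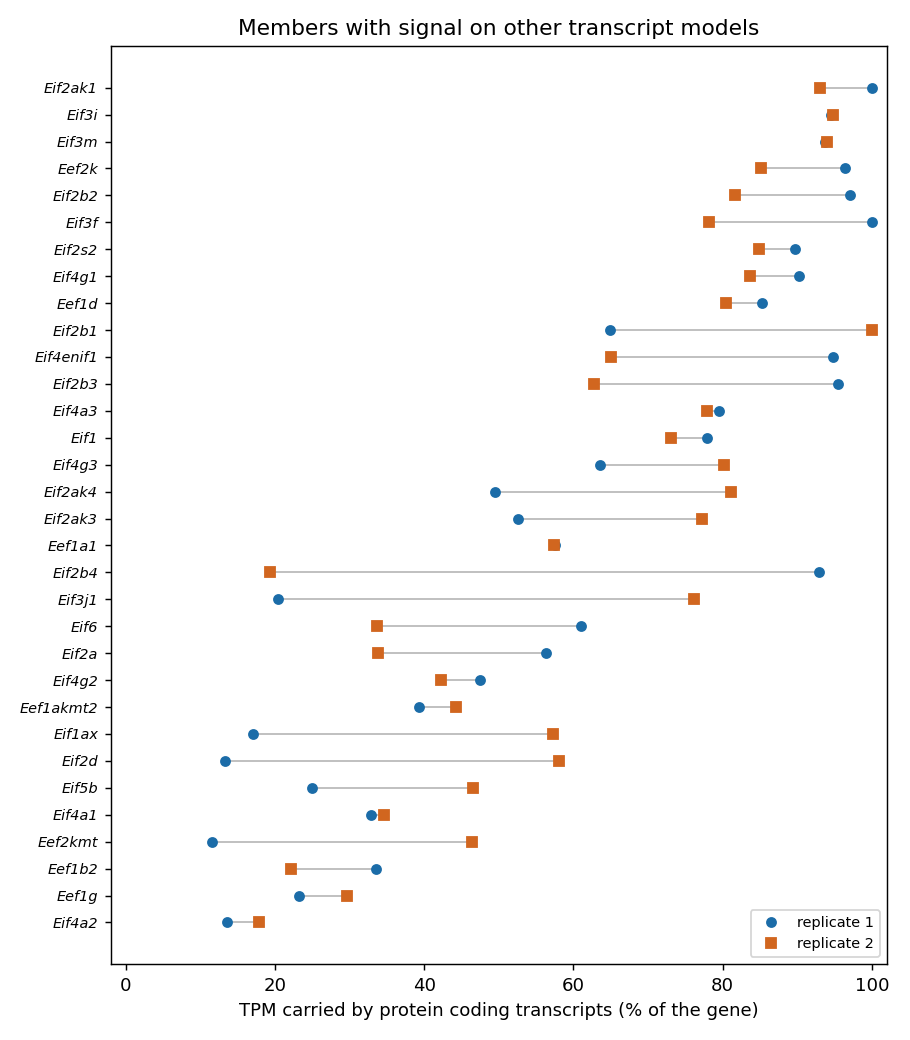
Percent of a gene's TPM carried by its protein coding transcripts in replicate 1 (circles) and replicate 2 (squares), for the 32 genes detected in both libraries that were not above 99% in both. Eif4a2, Eef1g and Eif4a1 stayed below 50% in both, and Eif2b4 (92.9% and 19.3%) and Eif3j1 (20.5% and 76.2%) were far apart. The 19.3% of Eif2b4 leaves out a transcript of 512 bases that is absent from GENCODE M21 and so has no type.

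Promoter sequence was compared as a property that the choice of genes did not use. A RefSeq window (GRCm38.p6, 250 bases before to 50 after a gene's start) was present for 50 of the 66 genes. Motifs were chosen after the windows were seen, and a match describes letters, not a site in use. TATAAAA or TATATAA on the sense strand, the core of a TATA box, occurred in 3 of 50, namely Eef1a1, Eef2 and Eif1. That is 6% against 5.83% of protein coding genes. CCGGAAG on either strand, the core of sites for Ets family factors, occurred in 17 of 50 (34%, against 13.5% of protein coding genes). AAGATGGC on the sense strand, a YY1-type word that also holds the ATG start codon letters, occurred in 5 of 50 (10%, against 2.48%), namely Eef1e1, Eif2s3x, Eif3f, Eif4a1 and Eif4e. The shares over protein coding genes count every gene with a window, detected here or not. Detection in both libraries was 92.4% for the set and 45.5% for all protein coding genes. No share over detected genes alone was taken. No test was made, and these motifs do not overlap one another in the windows shown.

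The windows below run from 40 bases before the annotated start to 30 bases from it, with motifs in capitals. Those of Eef1a1, Eef2 and Eif1 are shown as the 3 with a TATA-type word, Eif3f and Eif2s3x for AAGATGGC, and Eef1b2 for CCGGAAG. They lie at chr9:78481695-78481764 (minus strand), chr10:81176591-81176660 (plus), chr11:100319909-100319978 (plus), chr7:108934375-108934444 (plus), chrX:94212622-94212691 (minus) and chr1:63176791-63176860 (plus).
Eef1a1: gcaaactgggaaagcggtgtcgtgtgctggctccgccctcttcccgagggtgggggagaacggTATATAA
Eef2: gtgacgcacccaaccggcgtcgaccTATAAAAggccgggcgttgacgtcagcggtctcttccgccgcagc
Eif1: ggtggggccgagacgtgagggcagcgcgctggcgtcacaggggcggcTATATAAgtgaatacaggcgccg
Eif3f: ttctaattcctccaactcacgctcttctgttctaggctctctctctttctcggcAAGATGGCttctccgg
Eif2s3x: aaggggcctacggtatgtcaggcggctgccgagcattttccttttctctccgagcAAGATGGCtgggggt
Eef1b2: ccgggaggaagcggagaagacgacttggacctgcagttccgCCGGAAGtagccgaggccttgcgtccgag

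The TATA-type word lies before the annotated start in Eef2 and after it in Eif1 and Eef1a1. In Eif3f, Eif2s3x and Eef1b2 the marked word lies just after the start. Mean TPM was 5572 for Eef1a1, 450.7 for Eef2 and 120.5 for Eif1. The median of the mean TPM over the 17 genes with CCGGAAG was 30.7, and over the other genes with a window it was 42.6.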

How the data were processed

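The authors deposited a gene table and a transcript table per library (build mm10, GENCODE M4, per the labels), whose columns are those RSEM writes, per the file headers. The authors' files give expected counts (reads shared out over matching genes), TPM and FPKM as length-scaled levels, and for each transcript its percent of the gene's TPM as deposited. Aligner, program version, strand and read length were not given in the sources used here. Spike-in and other rows without a gene held 0.012% and 0.00719% of counts and were left out. Symbols and transcript types came from GENCODE M21 of the same build. Of 331 member transcripts, 325 were in M21. The others had no type and were not counted as protein coding. Differences use log2(TPM + 1), ratios a pseudocount of 0.1 TPM, and no test was made. Every member could be named. Of partner lists, the 3 genes of highest mean TPM and those past 2-fold were named, with a few others. The members and lists were chosen with earlier results of these data known. Alternatives used edgeR 4.0.16 and DESeq2 1.42.0 for scaling only, on expected counts rounded to whole numbers. The 2-fold step was tested on simulated data with the same gene lengths in both libraries and an assumed spread. That test does not cover differences in transcript length between the libraries or the spread seen here. Of the members, 38 overlap another gene, 4 of them a protein coding gene on the same strand. Python 3.11.15, pandas 2.3.3 and matplotlib 3.10.9 were used.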

Additional observations from a re-analysis of the deposited data

Results flagged for a closer look

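Pseudogenes named after these factors were outside the set, and 3 of them held counts above the limit of 3 that a count of 0 allows. Eif4a-ps4, a processed pseudogene, had an expected count of 754.55 in replicate 1 and 253.82 in replicate 2 (21.5 and 12.9 TPM). Eif1-ps1 had 5.08 in replicate 2 and Eif5al3-ps had 5 and 5.02. How reads that match both a parent gene and a copy were divided was not tested.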

How the results depend on the processing

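No paired analysis was possible because there is a single group. The cause of each change below was not tested. Genes not detected in both libraries numbered 9 at a TPM threshold of 5 instead of 5. Genes over 2-fold higher in replicate 2 numbered 1 with a pseudocount of 5, 1 among genes detected in both libraries and 5 over protein coding transcripts, in place of 3. Those higher in replicate 1 stayed at 3 over protein coding transcripts, but not the same genes. Eef1b2 (37.1 and 13.6 TPM) and Eif2b4 (13.1 and 4.06) came in, and Eif1ax and Eef2kmt dropped out. The Eif2b4 value leaves out its transcript without a type. At 1.5-fold, 6 were higher in replicate 1. The median difference of 0.06 became -0.12 with TPM rescaled to nuclear coding genes, -0.045 by TMM, -0.061 by DESeq2 size factors, 0.13 by FPKM, 0.0071 over protein coding transcripts and -0.022 by CPM. Over all coding genes it was 0.09 as deposited and -0.08 rescaled, so a small difference in level has no fixed sign. The median level of 39.4 TPM became 139.7 rescaled, 35.6 without a filter and 29.5 over protein coding transcripts. The share of nuclear coding TPM became 1.62% without Eef1a1 and 3.14% over protein coding transcripts. Leaving out each replicate gave 61 to 63 genes detected, a median of 38.5 to 40.4 TPM, a share of 3.50% to 3.68% and 50 to 54 coding top transcripts, and differences between libraries could not be computed. The protein coding and CPM alternatives were chosen after seeing the data.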
